A study of Mus musculus with 18 samples.

Results

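The transcriptomes of adipocytes isolated from epididymal white adipose tissue (eWAT) and of whole brown adipose tissue (BAT) were compared across all genes. The comparison rests on 12 RNA-seq libraries, chosen by the tissue named in the labels, of the 18 libraries in the series, and covers the 20076 of 52093 gene symbols that had a mean of at least 10 reads. Each tissue had 6 male mice, all wild type on a C57BL/6 background, kept for 12 weeks on a high-fat diet (HFD) and 16 weeks old, so the diet was shared by every sample and no lean sample enters. The eWAT samples came from mice 1, 2, 3, 4, 5 and 16 and the BAT samples from mice 1, 2, 5, 16, 17 and 18. The study asked what inhibitory G protein signaling does in adipocytes. In it these libraries, beside others from mice on regular chow, served to identify receptors of adipocytes and BAT that couple to inhibitory G proteins. The labels also carried a treatment field that gives regular chow. Titles and protocol give the HFD, and the samples were treated as HFD samples.

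Both arms differ in more than the depot. The eWAT sample was the floating layer of cells left after collagenase digestion and washing, whereas BAT was frozen whole, with its vessels, nerves, blood and any adherent muscle, although a label field calls it BAT adipocytes. The eWAT libraries were read on lanes 1 and 2 and the BAT libraries on lanes 3 and 4. Depot, isolation of cells and lane therefore cannot be told apart in any difference given here, and neither can fewer cells of a type and less RNA per cell.

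White adipocytes store triglyceride in a large droplet, release fatty acids when lipolysis is switched on and secrete hormones such as leptin. Brown adipocytes hold many small droplets and many mitochondria, and uncoupling protein 1 (UCP1) in their inner membrane lets protons back without making ATP, so that oxidized fuel is released as heat. In obese mice eWAT takes up large numbers of macrophages that surround dying adipocytes and fill with lipid.

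Reads on the annotated rows numbered 24655056 to 37438994 per eWAT library and 27402247 to 42518483 per BAT library. Rows of the mitochondrial genome held 2.52 to 4.52% of these reads in eWAT adipocytes and 16.2 to 20.6% in BAT. A further 5.23 to 8.45% and 29.9 to 37.3% lay on 5 rows of a block on chromosome 1, chr1:24618374-24623027 in mm9, that matches positions 6390 to 11042 of the mitochondrial genome with 2 mismatches in 4654 aligned bases. Because so much of each BAT library was mitochondrial, levels are given as RPKM (reads per kilobase of transcript, relative to library size) recomputed with TMM-scaled library sizes, called scaled RPKM below. On this scale the ratio of eWAT to BAT is lower than on the deposited RPKM by 0.588 in log2 for the median gene. Every log2 fold change is eWAT adipocytes over BAT, with its standard error (SE), from edgeR. Counting is not stated to use strand, so overlapping rows share reads. Of the genes described, Prdm16, Ebf2, Esrrg, Cox4i1, Cox8a, COX2, COX3, Cpt1a, Cpt1b, Acaca, Lipe, Fabp5, Bckdha, Atp6v0d2, H2-Ab1, Ciita, Ctsd, Hspa1a, Timp3, Hoxa4, Hoxa5, Wt1, Hlf, Prdx1, Txnrd1, Gnai2, Irs1 and Hbb-b1 overlap another row on the same strand and are uncertain to that extent, and others overlap one on the opposite strand. The rows of Atp5g1, Ckb, Cxcl1, Cxcl2, Rgs1 and Pde3b are single blocks rather than spliced exons, so their levels per length are uncertain.

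Most tested genes differed between eWAT adipocytes and BAT. Of 20076 genes, 16561 (82.5%) passed an adjusted p of 0.05, 8243 (41.1%) higher in eWAT adipocytes and 8318 (41.4%) higher in BAT. With a difference of at least 2-fold as well, 4760 genes (23.7%) were higher in eWAT adipocytes and 5070 (25.3%) were higher in BAT, and these shares are the background for every list count that follows. The 6 values of each tissue did not overlap for 13303 genes (66.3%). Large differences were more often toward eWAT adipocytes, with 875 genes at least 16-fold higher there against 455 in BAT, and log2 fold changes ran from -13.35 to 12.64 around a median of -0.02. The balance of directions rests on the scaling. Without it the median moved to 0.89 and 12962 of 17028 calls were higher in eWAT adipocytes, 76.1% against 49.8% with TMM. With limma on log2(RPKM + 0.1) the median was 0.54 and the share 67.6%, and with upper-quartile scaling -0.15 and 44.7%. None of the 235 genes looked at in detail changed direction with any of the scalings.

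**Figure D1:**
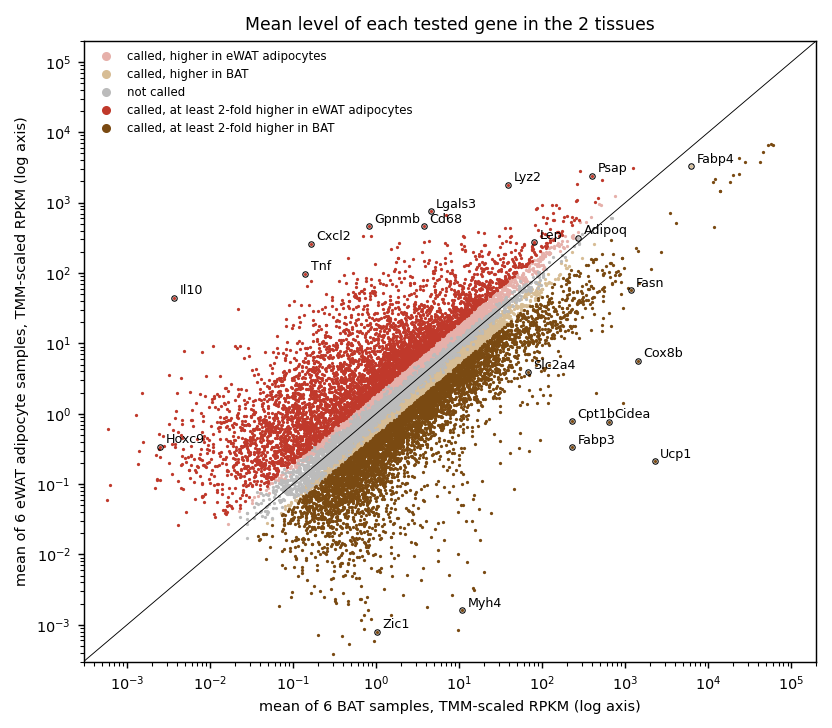
Mean scaled RPKM of each tested gene in 6 BAT samples (x axis) and in 6 eWAT adipocyte samples (y axis), both on log axes. Colors give the edgeR call, the line marks equal levels, and 47 genes with a mean of 0 in 1 tissue are not drawn. Ucp1, with a mean of 2268 in BAT and 0.212 in eWAT adipocytes, lies farthest below the line, and Il10, Cxcl2 and Tnf lie far above the line.

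In BAT, the gene with the largest difference was Ucp1 itself. It measured 1857 to 2580.2 (median 2279.5) scaled RPKM in BAT and 0.0991 to 0.304 (median 0.21) in eWAT adipocytes, a log2 fold change of -13.35 ± 0.25 (edgeR adjusted p = 1.1e-14). No value of either tissue came near those of the other. The other 14 named for the largest difference toward BAT held lipid genes, muscle genes and genes of less known roles. Slc27a2, a very-long-chain acyl-CoA synthetase, had at most 3 reads in each eWAT library against 9.07 to 21.1 scaled RPKM in BAT, which makes it at least 616-fold higher in BAT. Fabp3, a fatty acid binding protein of oxidative tissues, measured 151 to 296 in BAT and 0.216 to 0.457 in eWAT adipocytes. Cidea, a lipid droplet protein of brown fat, measured 512 to 695 and 0.28 to 1.46. Also among the 14 were the mitochondrial carrier Slc25a48 (-10.13), the neurotrophin receptor Ntrk3 (-9.43), the asparaginase Aspg (-9.26), the kininogen Kng2 (-9.08) and Lgr6, a receptor for R-spondins (-11.69, in log2 fold change). Cpn2 was at least 622-fold, A330068G13Rik at least 456-fold and 9130214F15Rik at least 114-fold higher in BAT, with eWAT libraries at 3 reads or fewer. The remaining 3, Myh4, Atp2a1 and Ckm, are genes of fast skeletal muscle and are taken up with the cell markers. Of all 15, Myh4 came next after Ucp1 (-12.39).

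The 15 genes with the largest difference toward eWAT adipocytes included cytokines, chemokines and macrophage genes. Il10, an anti-inflammatory cytokine, measured 25.5 to 80.8 (median 38.9) scaled RPKM in eWAT adipocytes and had at most 3 reads in every BAT library, so that it was at least 349.5-fold higher. The neutrophil-attracting chemokines Cxcl2 (log2 fold change 10.68 ± 0.35) and Cxcl1 (8.96 ± 0.32) measured 159 to 459 and 256 to 546 scaled RPKM, against 0.103 to 0.226 and 0.455 to 1.22 in BAT. Tnf, the inflammatory cytokine, measured 58.2 to 191 (median 75.7) against 0.0593 to 0.27 (median 0.123). Gpnmb and Spp1, which lipid-laden macrophages express, measured 333 to 628 and 48.6 to 101 against 0.428 to 1.15 and 0.0683 to 0.299. The elastase Mmp12 (8.63), the proton pump subunit Atp6v0d2 (8.46), the inflammasome sensor Nlrp3 (8.13), the lectin receptor Clec4d (8.12), the tetraspanin-like Tm4sf19 (8.71), the G protein regulator Rgs1 (8.88), the exchange factor Rasgef1b (8.57) and the ligand Tnfsf9 (7.80) had log2 fold changes near that of Spp1 (8.90). Serpinb9b, a protease inhibitor, was at least 537-fold higher, with BAT at 3 reads or fewer. In none of these 15 genes did the 6 values of both tissues overlap, which the naming rule required.

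Markers of cell types were read in every sample. The brown adipocyte list was higher in BAT for all 12 members, with a summed level of 3810.0 to 5367 scaled RPKM in BAT and 7.6 to 20.1 in eWAT adipocytes. The 14 macrophage markers went the other way. Of these, 13 were at least 2-fold higher in eWAT adipocytes, with a median log2 fold change of 5.23 against -0.02 for all genes, and their sum was 3063 to 4702 against 62.5 to 100.5. Lyz2, the lysozyme of myeloid cells, reached 1381 to 2489 (median 1575) scaled RPKM in the eWAT samples against 28.1 to 45.5 (median 42.3) in BAT. Cd68 measured 369 to 559.8 against 2.6 to 4.84, Emr1 71 to 111 against 0.459 to 0.961, Csf1r 54.4 to 84.2 against 1.95 to 3 and Itgax, a marker of inflammatory fat macrophages, 45.5 to 94.4 against 0.34 to 0.558. Mrc1 and Cd163 mark resident macrophages. Mrc1 was higher in eWAT adipocytes (4.40 ± 0.17), while Cd163 had overlapping values, 1.17 to 2.22 against 0.851 to 1.62, and lost its call with the replicate number as a block (adjusted p = 0.10 by edgeR). In the eWAT samples, labeled as isolated adipocytes, the macrophage sum was above the adipocyte sum in mice 3 (4702 against 3262) and 1 (4543 against 4147) and below it in the other 4. The count stayed at 13 without the eWAT libraries of mice 1 and 3, which had the most. The part of macrophages in the results below was not tested.

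The 12 general adipocyte markers were split. Adiponectin (Adipoq) measured 121 to 467 (median 343) scaled RPKM in eWAT adipocytes and 229 to 309 (median 271) in BAT (log2 fold change 0.22 ± 0.27, edgeR adjusted p = 0.46). Cidec, a droplet protein, measured 147 to 516 (median 412) and 249.8 to 326 (median 308) (adjusted p = 0.34 by edgeR). For both genes the eWAT samples spread across the whole range of the BAT samples and beyond it, and both were called higher in eWAT adipocytes without the eWAT libraries of mice 1 and 3, and without scaling. The 7 markers at least 2-fold higher in BAT were Adrb3, Slc2a4, Aqp7, Pnpla2, Lipe, Pparg and Plin1, a count of 4 without scaling. Lpl and Cd36 were higher in eWAT adipocytes. Fabp4, the adipocyte fatty acid binding protein, was the most abundant of the 12 in both tissues, at 5251 to 6797 in BAT and 1609 to 4840.1 in eWAT adipocytes (log2 fold change -0.92 ± 0.22). It lost its call without scaling, with limma on log2(RPKM + 0.1) or log2(RPKM + 1), against a 2-fold difference and with eWAT lane 1 against BAT lane 3.

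Libraries of the same tissue were not alike. In eWAT, mouse 3 had the lowest adipocyte sum, 3262 scaled RPKM, and mouse 1 the next, 4147, against 5169 to 7402 in the other 4. The same 2 libraries had the highest macrophage sums, 4702 and 4543, against 3063 to 3316. In BAT, the skeletal muscle sum was 244 in mouse 5, 221 in mouse 16, 197 in mouse 1 and 142 in mouse 18, but 43.6 in mouse 17 and 15.4 in mouse 2. The muscle myosin Myh4 ranged from 0.176 to 26.7 scaled RPKM across BAT libraries, a span wider than that of Ucp1 by far. All 14 muscle markers were at least 2-fold higher in BAT. With BAT mice 1, 5, 16 and 18 left out the count was 10, Myh4, Ckm and Atp2a1 kept their calls, and Acta1 lost its call (log2 fold change -1.03, edgeR adjusted p = 0.20). The hemoglobin genes Hba-a1 and Hbb-b1, from blood, were higher in BAT (-3.14 ± 0.22 and -3.12 ± 0.23), as were 5 of 6 nerve markers (1 with limma on log2(RPKM + 1)). S100b, at 61.9 to 80.7 against 0.135 to 0.53, carried most of the nerve sum of 68.7 to 86.6 in BAT. That sum is thus mainly the level of 1 gene, and which cells S100b came from was not tested. Of 10 endothelial markers 6 were at least 2-fold higher in BAT, the receptor Kdr among them (-2.46 ± 0.19), a count of 2 without scaling. Markers of epididymal epithelium were read at low and uneven levels in eWAT. Crisp1, a sperm-coating protein of the epididymis, and the lipocalin Lcn5 had no read in any BAT library. Lcn5 had none in eWAT mice 4 and 5 either, and of the 4 tested markers 1 did not overlap between the tissues. In eWAT, mouse 16 had the highest sum of these markers, 15.3, against 0.136 to 5.53 in the others.

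**Figure D2:**
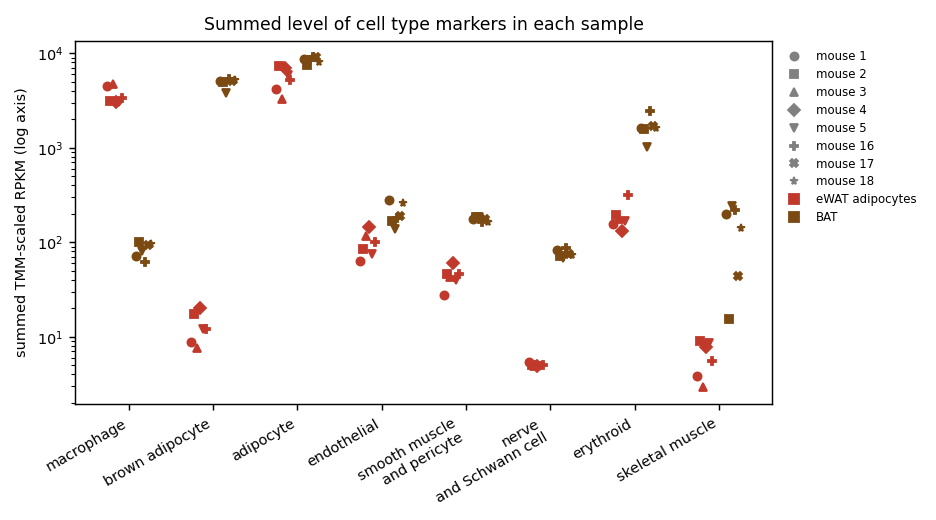
Summed scaled RPKM (y axis, log) of the markers of 8 cell types in each of 6 eWAT adipocyte samples and 6 BAT samples. Each symbol is a sample, its shape gives the mouse. The macrophage sum of every eWAT sample (3063 to 4702) lies above every BAT sample (62.5 to 100.5), and the skeletal muscle sum spreads over BAT mice from 15.4 to 244.

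Thermogenic genes were lower in eWAT adipocytes as a group. Of 28 tested regulators and effectors, 25 were at least 2-fold higher in BAT against a background of 25.3%, with a median log2 fold change of -3.98. Among the nuclear factors, Ppara, which drives fat oxidation genes, measured 42.4 to 66.6 scaled RPKM in BAT and 0.0966 to 0.433 in eWAT adipocytes. The coactivator Ppargc1a had a log2 fold change of -5.30 ± 0.23, the estrogen-related receptors Esrrg and Esrra -3.83 ± 0.25 and -2.55 ± 0.11, Prdm16 -2.98 ± 0.16 and Ebf2 -3.76 ± 0.12. Prdm16 and Ebf2 are factors that set brown identity. Among effectors, the type 2 deiodinase Dio2, which activates thyroid hormone, measured 7.43 to 18.7 against 0.554 to 0.755, the fatty acid elongase Elovl3 14.8 to 49.8 against 0.101 to 0.329, the proton channel Otop1 60.9 to 77.6 against 1.24 to 3.73, the potassium channel Kcnk3 43.6 to 60.9 against 1.99 to 6.87 and the inner membrane protein Letmd1 99.1 to 130.1 against 4.26 to 4.78. Both tissues' values stayed apart for each of these genes. Of the 2 members at least 2-fold higher in eWAT adipocytes, Ucp2 (4.39 ± 0.14) is an uncoupling protein relative that macrophages express.

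**Figure D3:**
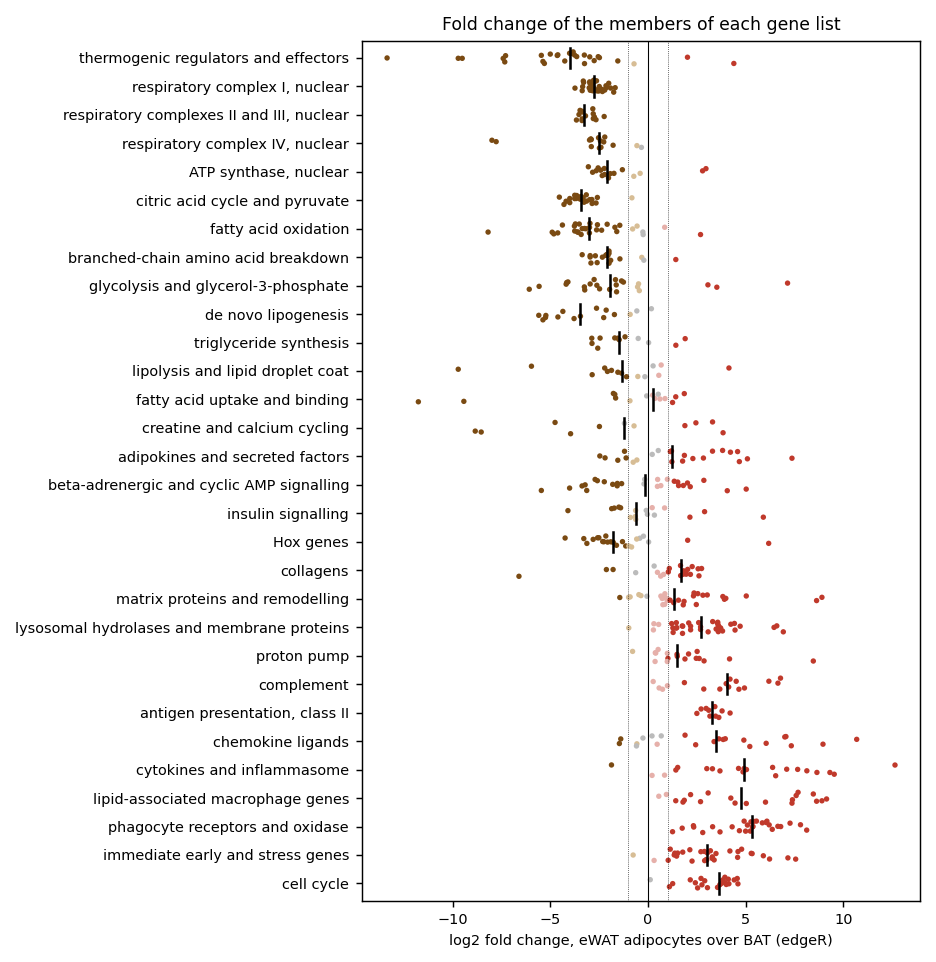
Log2 fold change of eWAT adipocytes over BAT (x axis, from edgeR) for each tested member of 30 gene lists. Dots are genes, colored dark where called and at least 2-fold different, pale where called below 2-fold and gray where not called, black ticks are list medians, and dotted lines mark 2-fold. Respiratory and oxidative lists lie left of 0 and lysosomal, immune and stress lists lie right of it, with medians from -3.98 to 5.30.

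Respiratory chain genes of the nucleus were higher in BAT almost without exception. All 37 tested subunits of complex I were at least 2-fold higher in BAT, with log2 fold changes from -3.74 for Ndufv1 to -1.68 for Ndufa7 and a median of -2.77. Ndufv1, a core subunit, measured 207 to 261 scaled RPKM in BAT and 15.1 to 20 in eWAT adipocytes. All 14 genes of complexes II and III behaved alike (median -3.27), with Uqcrfs1, the iron-sulfur protein of complex III, at 474 to 582 against 38.7 to 52.9, and so did 14 of 16 of complex IV (median -2.51). Of 16 ATP synthase genes, 12 were at least 2-fold higher in BAT, and the catalytic subunit Atp5b measured 885 to 1035 against 98.4 to 132. The genes at least 2-fold higher in eWAT adipocytes were both of this last list. Atpif1, an inhibitor of the enzyme, measured 13.6 to 20.6 (median 16.4) in eWAT adipocytes and 1.94 to 2.51 (median 2.19) in BAT (log2 fold change 2.97 ± 0.11, edgeR adjusted p = 2.9e-12). The row that stands for Atp5g1, a gene for the c subunit of the rotor, measured 18.4 to 22 (median 20.2) and 2.54 to 3.25 (median 2.98) (2.79 ± 0.10). That row is 1 block of 535 bases at chr11:100222932-100223466 in mm9, while another row of the symbol, chr11:95930166-95937008 with 5 exons, held 451 to 803 reads per eWAT library and 38 to 94 per BAT library. With the rows summed the log2 fold change was 2.58, and which of these places gave the reads was not tested. For both genes every eWAT sample was above every BAT sample. Within eWAT, Atpif1 was highest in mice 3 and 1 (20.6 and 20.4 against 13.6 to 16.6), the libraries with the highest macrophage sums.

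The mitochondrial genome itself gave fold changes of the same size. COX1, on the mitochondrial chromosome, measured 18170.1 to 31426 scaled RPKM in BAT and 3088 to 4979 in eWAT adipocytes (-2.46 ± 0.20), and ND5 measured 10779.8 to 21047 and 935 to 1825 (-3.24 ± 0.23). ND5 overlaps ND6 on the other strand and both rows hold nearly the same level (13737 for ND6 and 13696 for ND5 in BAT), so reads of the 2 strands cannot be told apart. The rows named COX2, COX3 and ND4L lie on the chromosome 1 copy, and their values (-3.19, -3.12 and -2.88) cannot be assigned to either place.

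Isoforms of one protein could differ far more than their partners. Cox7a1 and Cox8b are the heart and muscle type subunits of complex IV. Cox7a1 measured 302 to 514 (median 456) scaled RPKM in BAT and 1.56 to 2.28 (median 2.06) in eWAT adipocytes, a log2 fold change of -7.77 ± 0.17, while its broadly expressed partner Cox7a2 had -2.43 ± 0.10. Cox8b measured 891 to 1658 (median 1525) and 2.54 to 9.88 (median 4.89) (-7.99 ± 0.36), against -2.21 ± 0.15 for Cox8a. In BAT Cox8b stood above Cox8a (389 to 681), while in eWAT adipocytes Cox8a (97.7 to 155) stood above Cox8b in every sample. Carnitine palmitoyltransferase 1 (CPT1), which admits long-chain fatty acids to mitochondria, reversed in the same way. Cpt1b measured 209 to 255 (median 225) in BAT and 0.469 to 0.966 (median 0.811) in eWAT adipocytes (-8.18 ± 0.18, edgeR adjusted p = 3.5e-14), whereas Cpt1a measured 2.61 to 4.14 (median 3.37) and 19.1 to 24 (median 21) (2.69 ± 0.13, adjusted p = 2.6e-11 by edgeR). Within eWAT, Cpt1a was highest in mice 1 and 3 (24 and 23.9 against 19.1 to 21.2), the libraries with the highest macrophage sums. Cox4i2, a regulated subunit, was low in both tissues (1.32 to 2.48 and 0.366 to 0.926) beside Cox4i1 (642 to 1064 and 147 to 187).

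**Figure D4:**
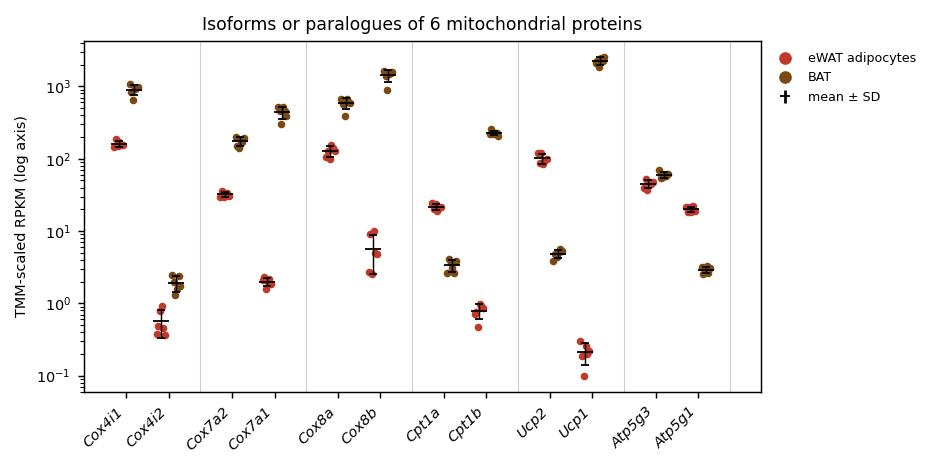
Scaled RPKM (y axis, log) of 6 pairs of mitochondrial protein isoforms or paralogs. Dots are the 6 samples of each tissue and bars the mean ± SD. Cox7a1, Cox8b, Cpt1b and Ucp1 drop from BAT to eWAT adipocytes by far more than Cox7a2 and Cox8a, and Cpt1a, Ucp2 and the single-block row of Atp5g1 are higher in eWAT adipocytes.

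The oxidative pathways that feed the chain were higher in BAT too. 20 of 21 citric acid cycle and pyruvate genes (median -3.43), 25 of 31 fatty acid oxidation genes and 15 of 18 genes for the breakdown of branched-chain amino acids (median -2.08) were at least 2-fold higher in BAT. Citrate synthase (Cs) measured 216 to 264 scaled RPKM in BAT against 20.6 to 33.3 in eWAT adipocytes. The thiolase Acaa2 measured 873 to 1010.4 against 27.8 to 33.9, the dehydrogenase Acadvl 485 to 550.0 against 14.4 to 23.1 and Pdk4, a kinase that shuts off pyruvate oxidation, 291 to 469 against 10.2 to 21.4. Cpt1a was the fatty acid oxidation gene at least 2-fold higher in eWAT adipocytes, and Bcat1, the cytosolic transaminase, was that of the branched-chain list, with overlapping values (0.277 to 0.945 and 0.114 to 0.356). Bckdha, a subunit of the dehydrogenase that commits these amino acids to oxidation, measured 133 to 189.8 against 12.1 to 20.7.

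Sugar handling split by isoform. Of 23 glycolysis and glycerol-3-phosphate genes, 17 were at least 2-fold higher in BAT. Slc2a4, the insulin-responsive glucose transporter GLUT4, measured 49.7 to 85.6 (median 63.1) scaled RPKM in BAT and 1.26 to 6.66 (median 4.24) in eWAT adipocytes (-4.10 ± 0.32), with the lowest value in eWAT mouse 3. Slc2a1, the basal transporter GLUT1, went the other way, at 1.25 to 2.51 in BAT and 11.2 to 18.1 in eWAT adipocytes (3.07 ± 0.16). Its highest eWAT values were those of mice 3 and 1 (18.1 and 17.4 against 11.2 to 15.9), where the macrophage sums were highest. Among hexokinases, Hk2 of muscle and fat was higher in BAT (-2.76 ± 0.23) and Hk3, an isoform of myeloid cells, in eWAT adipocytes (7.14 ± 0.22). Both enzymes of the glycerol phosphate shuttle were higher in BAT. The cytosolic Gpd1 measured 1834 to 2358 against 47.4 to 157 and the mitochondrial Gpd2 102 to 146 against 1.63 to 1.98. Ldhb, the lactate dehydrogenase chain of oxidative tissues, had a log2 fold change of -5.57 ± 0.20.

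Fatty acid synthesis genes were higher in BAT, 12 of 15 by at least 2-fold with a median log2 fold change of -3.46. Fatty acid synthase (Fasn) measured 812 to 1697 (median 1074) scaled RPKM in BAT and 21.4 to 80.5 (median 64) in eWAT adipocytes (-4.36 ± 0.34). Acaca and Acacb, the acetyl-CoA carboxylases, measured 79.7 to 175 and 48.9 to 79.6 against 2.72 to 6.72 and 0.594 to 1.94. Acly, which makes cytosolic acetyl-CoA, had a log2 fold change of -3.78 ± 0.28, the elongase Elovl6 -5.38 ± 0.30, Thrsp -5.22 ± 0.39 and Mlxipl, the carbohydrate response factor ChREBP, -5.24 ± 0.32. Scd1, a desaturase, was the most abundant gene of the list in both tissues, at 2404 to 4195 in BAT and 232 to 1117 in eWAT adipocytes. In eWAT these genes were lowest in mice 3 and 1, the libraries with the least adipocyte marker level (Fasn 21.4 and 32), and leaving both out kept the Fasn, Acaca and Scd1 calls.

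Triglyceride synthesis and lipolysis genes leaned toward BAT by smaller amounts. 8 of 12 triglyceride synthesis genes (4 without scaling) and 9 of 15 lipolysis and droplet coat genes (5 without scaling) were at least 2-fold higher in BAT. Dgat2, which adds the last acyl chain, measured 614 to 737 and 118 to 424. Its call was lost without scaling, against a 2-fold difference and with eWAT lane 1 against BAT lane 3. The lipases Pnpla2 (ATGL) and Lipe (HSL) measured 418 to 489 and 187 to 227 in BAT against 61 to 150.2 and 24.6 to 83.1 in eWAT adipocytes. G0s2, an inhibitor of ATGL, was higher in BAT as well (-2.86 ± 0.29), as was Plin5, the coat protein that ties droplets to mitochondria (-5.96 ± 0.25). 2310016C08Rik, the former symbol of the hypoxia-inducible droplet protein Hilpda, was the droplet gene at least 2-fold higher in eWAT adipocytes, at 69.3 to 97.6 against 3.14 to 6.68 (4.14 ± 0.19).

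Fatty acid uptake genes went in both directions, 5 of 15 at least 2-fold higher in BAT (2 without scaling) and 3 in eWAT adipocytes. Lipoprotein lipase (Lpl) measured 568 to 655 (median 624) scaled RPKM in eWAT adipocytes and 214 to 258 (median 223) in BAT (1.42 ± 0.11). The fatty acid translocase Cd36 measured 476 to 677 against 208 to 297, and Fabp5, the epidermal and macrophage binding protein, 139 to 215 against 29.1 to 59.7. Fabp3 and Slc27a2 were the largest in the other direction.

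**Figure D5:**
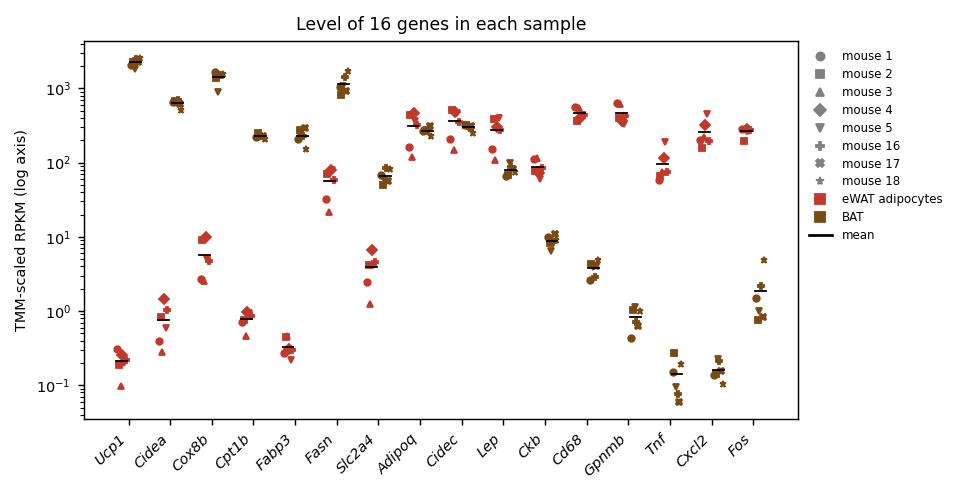
Scaled RPKM (y axis, log) of 16 genes in each of 6 eWAT adipocyte and 6 BAT samples. Symbols give the mouse and bars the mean. Adipoq and Cidec overlap between the tissues, and eWAT mice 1 and 3 lie lowest for Adipoq, Fasn and Slc2a4.

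Creatine genes were divided between the tissues. Creatine kinase B (Ckb) measured 60.1 to 115 (median 81.5) scaled RPKM in eWAT adipocytes and 6.38 to 10.9 (median 8.81) in BAT (3.30 ± 0.18, edgeR adjusted p = 1.2e-10). Gatm, the first enzyme of creatine synthesis, measured 9.66 to 14.3 against 0.455 to 1.07 and the creatine transporter Slc6a8 20.1 to 31.1 against 4.04 to 4.98. Ckb was highest in eWAT mice 3 and 1, at 115 and 113 against 60.1 to 84.6 in the others. These libraries had the highest macrophage sums. Slc6a8 was highest in the same mice (30.0 and 31.1), and Gatm was highest in mouse 3 (14.3) but not in mouse 1 (10.7). Alpl, a phosphatase, was higher in BAT (-3.96 ± 0.18). The mitochondrial kinase Ckmt2 ranged from 0.0231 to 1.26 in BAT and overlapped with eWAT adipocytes (0.0072 to 0.0377). It was lowest in BAT mice 2 and 17, at 0.0231 and 0.0254, the libraries with the lowest skeletal muscle sums.

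Secreted factors leaned toward eWAT adipocytes, 14 of 23 by at least 2-fold against a background of 23.7%. Leptin (Lep) measured 108 to 404 (median 289.7) scaled RPKM in eWAT adipocytes and 65.5 to 100.2 (median 78.6) in BAT (1.77 ± 0.27). Resistin (Retn) measured 8.23 to 47 against 1.5 to 4.5, the Wnt inhibitor Sfrp5 12.2 to 47.1 against 0.7 to 1.78, the iron carrier transferrin (Trf) 178 to 325 against 4.4 to 9.16 and Gdf15, a stress hormone, 32.8 to 57 against 1.61 to 14.8. Nnat, an imprinted proteolipid gene, had a log2 fold change of 2.30 ± 0.30. Complement factor D (Cfd), the adipsin of adipocytes, overlapped between the tissues (36 to 165 and 19.6 to 46.4). Lep and Retn were lowest in eWAT mouse 3, at 108 and 8.23. Of the 5 factors at least 2-fold higher in BAT (2 without scaling), the neuregulin Nrg4 measured 10.4 to 17.8 against 1.27 to 3.93 and Vegfa, which draws in vessels, 58.4 to 82.1 against 11.3 to 19.8.

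Receptors and enzymes of the cyclic AMP pathway, which the study set out to manipulate through inhibitory G proteins, showed no common direction. Of 27 genes 12 were at least 2-fold higher in BAT and 9 in eWAT adipocytes, and their median of -0.17 became 0.74 without scaling. Adrb3, Adrb1 and Gnas of the stimulatory arm were higher in BAT. The receptors Adrb3 and Adrb1 measured 71.9 to 130.4 and 6.51 to 12.6 scaled RPKM in BAT against 1.62 to 11.2 and 0.125 to 0.366 in eWAT adipocytes, and Gnas, the stimulatory alpha subunit, 96 to 140.2 against 18.2 to 21.5. Inhibitory alpha subunits went both ways, with Gnai1, Gnai2 and Gnai3 higher in eWAT adipocytes and Gnao1 higher in BAT, at 6.48 to 7.76 against 0.356 to 1.08 (-3.22 ± 0.22). Gnai2 measured 101 to 135 (median 108) against 26.1 to 34.5 (median 33.4) (1.81 ± 0.10), Gnai3 31.3 to 37.1 (median 35.1) against 10.4 to 12.5 (median 11.9) (1.57 ± 0.07) and Gnai1 11.4 to 41.9 (median 34) against 8.64 to 13.7 (median 9.87) (1.52 ± 0.27). The values of both tissues stayed apart for Gnai2 and Gnai3 and overlapped for Gnai1, whose lowest eWAT values were those of mice 3 and 1, 11.4 and 16.8. Among adenylyl cyclases, Adcy5 and Adcy7 were higher in eWAT adipocytes (4.06 ± 0.35 and 5.03 ± 0.17). The regulatory subunit Prkar2b (-2.23 ± 0.24) and the phosphodiesterase Pde3b (-1.35 ± 0.19) were higher in BAT.

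Insulin signaling genes were mixed as well, 5 of 17 at least 2-fold higher in BAT (1 without scaling) and 3 in eWAT adipocytes, and their median changed from -0.63 to 0.28 without scaling. Irs1 measured 1.44 to 2.38 scaled RPKM in BAT and 0.332 to 1.14 in eWAT adipocytes and Akt2 19 to 23.4 and 4.52 to 8.22. Irs2 went the other way, 9.14 to 15.7 in eWAT adipocytes against 0.802 to 3.01 in BAT. Ptpn1, the phosphatase PTP1B that acts on the insulin receptor, measured 14.6 to 23.7 (median 17.7) in eWAT adipocytes and 3.79 to 4.64 (median 4.22) in BAT (2.15 ± 0.12, edgeR adjusted p = 2.5e-10), and Socs3, another inhibitor, 27.2 to 59.9 against 0.517 to 1.1. Ptpn1 was highest in eWAT mice 3 and 1, at 23.7 and 22.5 against 14.6 to 18.6 in the others. These libraries had the highest macrophage sums. Socs3 is also a member of the immediate early and stress list below.

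Genes of lipid-associated macrophages were higher in the eWAT samples as a group. All 20 tested members were called higher there, 18 of them by at least 2-fold, with a median log2 fold change of 4.74. Galectin 3 (Lgals3) measured 609.6 to 932 (median 707) scaled RPKM in eWAT adipocytes and 3.52 to 5.78 (median 4.51) in BAT (7.37 ± 0.18). Trem2, the lipid-sensing receptor of these cells, measured 39.9 to 66.2 against 0.115 to 0.346 and Mmp12 129 to 533 with a log2 fold change of 8.63 ± 0.39. All 28 phagocyte receptor and oxidase genes were at least 2-fold higher in eWAT adipocytes (median 5.30), from the Fc receptor chain Fcer1g (5.34 ± 0.14) and the oxidase subunit Cybb (6.04 ± 0.17) to the Toll-like receptors Tlr2 (5.85 ± 0.18) and Tlr13 (7.27 ± 0.23). Both lists were highest in eWAT mice 1 and 3, where the macrophage markers were. The summed level of the first was 7248 and 7242 there against 5360.3 to 5884 in the other mice, and that of the second 1683 and 1676 against 1211 to 1293. The counts of 18 and 28 were the same without these 2 libraries.

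Cytokines and chemokines followed. 18 of 21 cytokine and inflammasome genes and 14 of 22 chemokine ligands were at least 2-fold higher in eWAT adipocytes. Il6 measured 6.26 to 14.8 scaled RPKM in eWAT adipocytes and had at most 3 reads per BAT library, at least 117-fold higher. Il1b measured 15.8 to 42 against 0.0518 to 0.207 and its antagonist Il1rn 24.3 to 39.7 against 0.147 to 0.403. The monocyte attractants Ccl2 and Ccl9 measured 56.6 to 109 and 179 to 275 against 0.827 to 2.83 and 1.28 to 2.3. eWAT mouse 5 had the highest Il10, Cxcl2 and Tnf of the 6, at 80.8, 459 and 191, although its macrophage sum was 3067, next to the lowest. The summed cytokine and chemokine levels were also highest in mouse 5, at 910.3 and 1711, against 523 to 685 and 990.2 to 1321 in the others. Nos2, the inducible nitric oxide synthase, was higher in BAT (-1.87 ± 0.19), and so were the chemokines Cxcl12 (-1.39 ± 0.14) and Cx3cl1 (-1.46 ± 0.17).

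Antigen presentation and complement genes were also higher in eWAT adipocytes. All 10 class II genes were at least 2-fold higher (median 3.30). The invariant chain Cd74 measured 359 to 517 scaled RPKM against 25.2 to 44.6, H2-Ab1 157 to 228 against 11.2 to 25.1 and their activator Ciita 1.19 to 2.33 against 0.119 to 0.33. Of 16 complement genes 12 were at least 2-fold higher. C1qb measured 279.8 to 458 against 7.41 to 13.9, and the anaphylatoxin receptors C3ar1 and C5ar1 43.9 to 69.9 and 61.5 to 93.2 against 0.29 to 0.757 and 0.686 to 1.45.

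Lysosomal genes were higher in eWAT adipocytes. Of 36 lysosomal genes 32 were at least 2-fold higher in eWAT adipocytes (median 2.69). Prosaposin (Psap) was the most abundant, at 1891 to 2995 (median 2257) scaled RPKM against 366 to 456 (median 379) (2.59 ± 0.15). The cathepsins Ctsb, Ctsl and Ctss measured 806 to 1116, 274 to 432 and 526 to 877 against 127 to 156, 19 to 20.4 and 4.7 to 8.49, and Ctsk, the collagen-degrading cathepsin, 91.3 to 225 against 1.4 to 2.53. Smpd1, acid sphingomyelinase, was the member called higher in BAT, at 19.7 to 25.1 against 8.66 to 13.8, and it lost its call without scaling. Of 18 proton pump subunits, 11 were at least 2-fold higher in eWAT adipocytes (17 without scaling), led by Atp6v0d2 (136 to 203 against 0.183 to 0.725) and Tcirg1 (4.17 ± 0.17), the subunits of osteoclasts and macrophages. The summed lysosomal level was 9069 and 9029.9 in eWAT mice 1 and 3 against 6241 to 7182 in the others, and without these libraries 31 lysosomal and 10 proton pump genes were at least 2-fold higher. BAT stayed at 1058 to 1203.

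Immediate early and stress genes were higher in the isolated cells. 30 of 32 were at least 2-fold higher in eWAT adipocytes, with a median log2 fold change of 3.02. Fos measured 198 to 286 (median 278) scaled RPKM in eWAT adipocytes and 0.751 to 4.87 (median 1.26) in BAT (7.16 ± 0.45, edgeR adjusted p = 7.8e-10). Fosb measured 69 to 129 against 0.125 to 1.52, Junb 227 to 303 against 3.97 to 10, Egr1 105 to 186 against 3.46 to 17.2 and Atf3, a stress-induced factor, 118 to 225 against 2.25 to 23.2. Heme oxygenase 1 (Hmox1) measured 89.6 to 194 against 4.28 to 6.03. The heat shock gene Hspa1a, which shares reads with its near-identical copy Hspa1b, measured 209 to 649.9 against 1.62 to 181, with the highest BAT value in mouse 1. It lost its call against the BAT libraries of lane 3, those of mice 1 and 5 (edgeR adjusted p = 0.17 with the eWAT libraries of lane 1 and 0.34 with those of lane 2). The summed level of the list was 3133 to 4463 in eWAT adipocytes, 974 in BAT mouse 1 and 357 to 557 in the other BAT mice. Genes of this kind are known to respond within minutes to the handling of tissue, and only the eWAT samples were digested and washed. Digestion and depot cannot be told apart for them.

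Cell cycle genes were higher in eWAT adipocytes at low levels, 21 of 22 by at least 2-fold (median 3.62). The proliferation marker Mki67 measured 11.5 to 20.4 (median 14.8) scaled RPKM against 0.473 to 0.841 (median 0.654) (4.57 ± 0.17), the topoisomerase Top2a 3.62 to 5.98 against 0.168 to 0.306, the kinase Cdk1 3.57 to 4.93 against 0.185 to 0.32 and the replication clamp Pcna 21.5 to 31 against 3.06 to 3.54. Mouse 3 and mouse 1 had the highest sums of this list, 167 and 164, as they had of the macrophage markers, and 20 genes were at least 2-fold higher without them.

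The extracellular matrix leaned toward eWAT adipocytes. 14 of 22 collagen genes (median 1.67) and 17 of 31 other matrix and remodeling genes (median 1.31) were at least 2-fold higher there. Col1a1 measured 18.1 to 30 scaled RPKM against 3.94 to 6.89, Col6a1 23.1 to 47.3 against 7.91 to 10.8 and the basement membrane collagen Col15a1 14.3 to 31.9 against 2.73 to 4.23. Fibronectin (Fn1) had a log2 fold change of 3.03 ± 0.15, thrombospondin 1 (Thbs1) 3.98 ± 0.43, the collagenase Mmp13 5.03 ± 0.22 and its inhibitor Timp1 3.83 ± 0.24. Timp3 was higher in BAT (-1.44 ± 0.17). Col27a1, a fibrillar collagen of cartilage, differed most and in the other direction, at 5.54 to 8.89 (median 7.93) in BAT against 0.0654 to 0.0999 (median 0.0744) in eWAT adipocytes (-6.60 ± 0.16).

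Genes that mark body position differed at low levels. Hox genes are expressed in order along the body axis, with low numbers in front. Of 23 Hox genes tested, 15 were at least 2-fold higher in BAT. Hoxa4 measured 5.27 to 8.75 scaled RPKM in BAT against 0.204 to 0.515 in eWAT adipocytes, Hoxa5 11.9 to 15.2 against 0.882 to 1.7 and Hoxc4 3.53 to 6.43 against 0.36 to 0.924. The 2 at least 2-fold higher in eWAT adipocytes were Hoxc8, at 2.73 to 11.6 against 1.36 to 2.4, and Hoxc9, at 0.125 to 0.507 with at most 3 reads in each BAT library (at least 3.95-fold higher). On log2(RPKM + 1), where low genes weigh less, 4 Hox genes were at least 2-fold higher in BAT. Outside the Hox clusters, 11 of 15 depot factors were at least 2-fold higher in BAT (3 on log2(RPKM + 1)). Zic1, a brown fat factor, was at least 63.4-fold, Tbx5 at least 74.6-fold and Tbx15 at least 29.6-fold higher, each with eWAT libraries at 3 reads or fewer. Wt1, a factor of visceral fat and mesothelium, measured 0.101 to 0.291 in eWAT adipocytes and had no read in BAT (at least 5.58-fold higher).

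Promoter motifs were counted over all genes at least 2-fold higher in each tissue, and no share was computed for macrophage, lysosomal or respiratory genes, which supply the examples printed below. Of 16553 tested genes with an Entrez ID, 11314 matched a RefSeq promoter (GRCm38.p6, 250 bases before to 50 after the start, with 14378 windows for these genes). Motifs were searched on both strands. GAGGAAGT, the core bound by PU.1 in macrophages, was in 4.63% of windows of genes at least 2-fold higher in eWAT adipocytes, 2.45% of those of genes higher in BAT, 3.14% of all tested and 3.2% of all promoters in the table. TGAGTCA, an AP-1 motif bound by Fos and Jun, was in 5.63%, 3.91%, 4.01% and 5.2%. GTCACGTGA, a motif of lysosomal genes that holds the E-box CACGTG, was in 1.41%, 0.878%, 1.42% and 0.782%, and the E-box, in this motif or outside it, in 9.82%, 8.36%, 9.67% and 7.15%. GCGCATGCG, bound by NRF1 at respiratory genes, was in 2.2%, 3.36%, 3.26% and 1.75%. TCAAGGTCA, bound by the estrogen-related receptors, was in 0.381%, 0.363%, 0.285% and 0.423%, TGACGTCA, the cyclic AMP response element, in 1.99%, 2.54%, 2.81% and 1.79%, and GGGANTTCC, of NF-kB, in 2.14%, 1.42%, 2.2% and 1.68%. These shares are descriptions, and no test was run.

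The stretches below show motifs in their place. They are RefSeq sequences placed on mm9 (NCBIM37) by exact match, read along the gene, with the motif in capitals and distances counted from the start in the RefSeq table. Spp1, Mmp12 and C1qc, macrophage genes at least 2-fold higher in eWAT adipocytes (log2 fold change 8.90, 8.63 and 4.51), hold the PU.1 letters, on either strand, 113, 88 and 195 bases before the start.
Spp1, chr5:104863977-104864064, plus strand: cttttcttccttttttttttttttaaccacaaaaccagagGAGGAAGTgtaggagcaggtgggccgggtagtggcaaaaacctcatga
Mmp12, chr9:7344269-7344356, plus strand: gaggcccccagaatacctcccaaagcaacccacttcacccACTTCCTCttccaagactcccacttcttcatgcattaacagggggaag
C1qc, chr4:136448977-136449064, minus strand: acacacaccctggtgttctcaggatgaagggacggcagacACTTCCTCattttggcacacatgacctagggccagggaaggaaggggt
The lysosomal genes Ctsd and Ctsa (log2 fold change 2.18 and 3.31) hold the lysosomal motif 99 and 14 bases before it. Both stretches lie inside the counted mm9 row of their gene, whose start is farther upstream.
Ctsd, chr7:149573783-149573871, minus strand: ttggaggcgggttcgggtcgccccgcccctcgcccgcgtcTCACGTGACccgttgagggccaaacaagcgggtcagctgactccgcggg
Ctsa, chr2:164659219-164659272, plus strand: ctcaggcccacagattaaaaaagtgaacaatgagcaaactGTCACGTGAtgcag
Cytochrome c (Cycs), the fatty acid dehydrogenase Acadm and the complex IV subunit Cox6a1, all higher in BAT (log2 fold change -3.37, -3.37 and -2.91), hold the NRF1 letters 61, 159 and 162 bases before it.
Cycs, chr6:50516581-50516669, minus strand: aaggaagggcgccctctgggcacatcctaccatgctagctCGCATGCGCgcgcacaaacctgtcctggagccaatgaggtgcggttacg
Acadm, chr3:153607718-153607806, minus strand: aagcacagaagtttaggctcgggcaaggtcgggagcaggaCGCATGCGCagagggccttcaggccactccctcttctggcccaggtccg
Cox6a1, chr5:115799081-115799169, minus strand: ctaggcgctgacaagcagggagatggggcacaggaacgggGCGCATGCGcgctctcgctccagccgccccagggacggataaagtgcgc
Cycs has near-identical copies elsewhere in the genome, so its count is uncertain. A match says that these letters are present in the window and is no evidence that the factor binds there.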

How the data were processed

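RNA-seq was done on floating adipocytes from collagenase-digested eWAT and on frozen whole BAT (NEBNext Ultra libraries). The submitters' processing notes name cutadapt 1.16, HISAT2 2.1.0 and the mm9 genome. The counting program and the gene annotation are not given in the sources used here. Per sample, the authors deposited whole-number read counts and RPKM values for 53445 annotated rows. Per the file headers, the RPKM values are reads per kilobase relative to library size, without scaling between tissues.

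From these files, each symbol was represented by its most abundant row (mean RPKM in all 18 libraries), and genes averaging 10 reads or more in the 12 libraries were tested with edgeR 4.0.16 in R 4.3.3 (TMM, quasi-likelihood test, two-sided, Benjamini-Hochberg adjustment over all genes, tissue as the only term). Lists were counted at an adjusted p of 0.05 and at least 2-fold. TMM factors were 1.35 to 1.40 in eWAT and 0.592 to 0.804 in BAT. Genes with at most 3 reads in every library of a tissue are given as bounds against 3 reads. Samples were grouped by their labeled tissue, and replicates differed from each other by more than sampling noise. Depth, 24655056 to 42518483 reads, set the counting error, which is small for most genes, so p-values measure the spread between libraries of a tissue. Each of these came from a different mouse, so differences between mice cannot be told apart from those of sample preparation, cell mixture or lane. Mouse numbers 1, 2, 5 and 16 stand in the titles of both tissues and were taken as the same mouse. Deviations from the group means correlated at -0.0328 to 0.0673 between same-numbered samples, 2 of 4 eWAT samples correlated best with their own number, and the tests are unpaired, with the mouse as a block among the alternatives.

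Named genes are the 15 with the largest difference in each direction (Entrez ID, no overlap between tissues, mean RPKM of at least 10 in the higher tissue), the 10 most abundant per tissue, and members of the gene and marker lists. Members and lists were chosen with earlier results of these data known, and some members counted in the lists are not reported by name here. Alternatives were DESeq2 1.42.0, limma 3.58.1 on log2(RPKM + 0.1) and log2(RPKM + 1), other scalings and filters, rows summed by symbol, all 18 samples in 1 fit, glmTreat, pairs of lanes and leaving out libraries. The edgeR scripts were tested on simulated data. The chromosome 1 copy was aligned with blastn 2.17.0. The third adipose depot of the series entered only the row choice and 1 alternative.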

Additional observations from a re-analysis of the deposited data

Results flagged for a closer look

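Among 498 sets of 6 values looked at, 34 held a lowest or highest sample set apart from the other 5 by a gap, relative to the whole range, above Dixon's critical value. Chance alone sets apart about 1 in 20. All values are scaled RPKM, and no cause was tested.

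In eWAT mouse 3, the sample with the lowest adipocyte marker sum, C1qb was high at 458 (280 to 344 in the others), as were the myeloid factor Irf8 at 8.74 (6.29 to 7.12) and the heat shock gene Hspa1a at 649.9 (209 to 351). COX3 was low at 3952 (5290.1 to 5862), and Zic1 was at 0.004806, a single read with none in the other 5.

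eWAT mouse 16 was set apart by markers of epididymis and blood. Crisp1 was at 3.82 (0.136 to 1.17) and the epididymal sum at 15.3 (0.136 to 5.53), while Hbb-b1 was at 107 (42.4 to 62.7) and the erythroid sum at 314 (132 to 194). The clock gene Per3 was at 0.547 (0.294 to 0.384).

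Of the other eWAT samples, mouse 4 had high Cx3cl1 at 1.79 (0.814 to 1.155) and the interferon gene Ifi44 at 0.243 (0.117 to 0.137). Mouse 2 had low Fos at 198 (271 to 286). Mouse 5 had a high T cell sum of 0.964 (0.410 to 0.585), and mouse 1 a high nerve sum of 5.38 (4.86 to 5.01).

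BAT mouse 5 was set apart by low values of some genes, and genes of brown fat were not all low there. Its summed levels of the thermogenic (3134), complex I (2902), complex II and III (2992), complex IV (4270) and ATP synthase (2525) lists were the lowest in BAT. The citric acid cycle and pyruvate sum (4619) was the highest, and that of fatty acid oxidation (5400) lay within the range of the other BAT samples. Ucp1 (1857) and Cox7a1 (302) were lowest in this sample without being set apart. Cidea (633), Dio2 (11.5), Elovl3 (26.5), Otop1 (68.4), Ebf2 (8.53), Prdm16 (3.13) and Ppargc1a (7.0) lay within the range of the other BAT samples. Zic1 (1.34) was highest in it. Cox8b was at 891 (1397 to 1658), Cox8a at 389 (579 to 681) and the brown adipocyte sum at 3810.0 (4942 to 5367), and Gnai2 was at 26.1 (32.7 to 34.5). BAT mouse 16 had high ND5 at 21047 (10779.8 to 13483) and ND6 at 21124 (10762 to 13597), low Top2a at 0.168 (0.267 to 0.306), high Rgs1 at 0.297 (0.0624 to 0.147) and an epididymal sum of 0.0751, a single read with none in the others.

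BAT mouse 18 had high Elovl6 at 155 (61.6 to 96.7), Cxcl1 at 1.22 (0.455 to 0.726), Ctsd at 134 (99.5 to 111) and Fos at 4.87 (0.751 to 2.19). BAT mouse 1 had high Atf3 at 23.2 (2.25 to 5.57) and Hspa1a at 181 (1.62 to 47.7). BAT mouse 2 had low Cycs at 4.91 (6.07 to 6.71) and high Cpn2 at 17.7 (9.21 to 12.0). In BAT mouse 17, Il10 was at 0.0221 and Hoxc9 at 0.0149, 1 read of each with none in the other 5. Any single read of a gene at 0 in the other samples would be set apart in this way.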

How the results depend on the processing

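Of the 235 genes looked at in detail, 221 kept their direction and their side of the threshold under all 30 alternatives, 12 lost a call under at least 1 (Plin1, Dgat2, Fabp4, Bcat1, Ckmt2, Cfd, Nampt, Cd163, Smpd1, Hspa1a, Acta1 and Lcn5), 2 gained one (Adipoq and Cidec) and 0 changed direction. The 16561 genes called, 4760 at least 2-fold higher in eWAT adipocytes and 5070 in BAT, were 16516 to 17028 called under every scaling, but without scaling beyond the total count the last 2 were 9379 and 2617. With another test, scale and pseudocount, limma on log2(RPKM + 0.1), they were 7429 and 3277, and with limma on log2(RPKM + 1) 1375 were higher in BAT. With every gene of at least 1 read, 8538 were higher in BAT, since more genes were tested. Tested against a 2-fold difference (glmTreat), 8179 genes were called. With a replicate block for the 4 shared mouse numbers, 15149 genes were called and 4761 and 5118 were at least 2-fold higher, a pairing that of the genes looked at ended the call of Cd163.

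Without 1 library at a time the counts were 16270 to 16552, 4666 to 4796 and 5016 to 5236. With the eWAT libraries of mice 1 and 3 left out, an alternative chosen after seeing the data, 16160 genes were called, and with BAT mice 1, 5, 16 and 18 left out, likewise, 14952. Of 47 list counts of at least 5, 16 moved by over 1.5 times under some alternative. Depth limited the genes at 3 reads or fewer in every library of a tissue, 283 in BAT and 142 in eWAT. Lane and tissue cannot be told apart: the 4 pairs of lanes gave 12335 to 15595 calls.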

Other observations

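Clock genes were divided. Of 18 genes 7 were at least 2-fold higher in BAT (4 without scaling) and 1 in eWAT adipocytes, and their median log2 fold change of -0.55 became 0.36 without scaling. The output factor Hlf measured 6.04 to 13 (median 8.21) scaled RPKM in BAT and 0.108 to 0.226 (median 0.143) in eWAT adipocytes (-5.84 ± 0.27). Npas2, a partner of the core clock, was the gene higher in eWAT adipocytes, at 0.663 to 1.6 against 0.0122 to 0.268. Per3 measured 1.11 to 4.87 in BAT and 0.294 to 0.547 in eWAT adipocytes. The time of day at which each tissue was taken is not given in the sources used here.

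Antioxidant genes split evenly, 10 of 30 at least 2-fold higher in each tissue, with a median of -0.35 that became 0.56 without scaling. Higher in BAT were the superoxide dismutase Sod2 at 95.6 to 118 scaled RPKM against 14.9 to 25.6 and the peroxiredoxin Prdx3 at 126 to 174 against 20.2 to 30.3. So were the secreted peroxidase Gpx3 (-4.52 ± 0.14) and Gsta4, which clears lipid aldehydes (-5.24 ± 0.21). Higher in eWAT adipocytes were Gpx1 at 547 to 788 against 181 to 226, Prdx1 at 53.1 to 235 against 23 to 30.6 and Txnrd1 at 19.5 to 32.4 against 6.97 to 8.45.

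Interferon-stimulated genes moved less than the other immune lists, 9 of 26 at least 2-fold higher in eWAT adipocytes (17 without scaling), 1 in BAT and a median of 0.51. Irf8 and Irf5, factors of myeloid cells, measured 6.29 to 8.74 and 26.7 to 41 scaled RPKM against 0.331 to 0.705 and 2.09 to 2.59, and Oas1a 2.29 to 3.25 against 0.214 to 0.521. Ifi44 was higher in BAT (-1.66 ± 0.24).

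The remaining cell markers were counted in the same way. Of 6 mesothelial markers 5 were higher in eWAT adipocytes and 1, Lrrn4, in BAT, at 8.48 to 11.4 scaled RPKM against 1.36 to 1.87. The first count was 2 without eWAT mouse 4 or mouse 16, 3 without mice 1 and 3, 3 with eWAT lane 2 against BAT lane 4 and 0 with limma on log2(RPKM + 1). Lrrn4 carried the summed level in BAT, 8.48 to 11.4 against 2.09 to 4.79 in eWAT adipocytes. The Lrrn4 row overlaps Crls1 on the opposite strand, and which of these genes gave the reads was not tested. The higher sum in BAT is therefore no measure of mesothelial cells. Of 9 smooth muscle and pericyte markers 5 were at least 2-fold higher in BAT, with a sum of 163 to 184 against 27.5 to 61.1. Fibroblast markers went both ways, 3 of 10 higher in eWAT adipocytes and 2 in BAT. T cell, B cell and granulocyte markers were low in both tissues, with sums of 0.41 to 0.964, 0.475 to 1 and 5.74 to 9.65 in eWAT adipocytes and 0.12 to 0.289, 0.453 to 0.852 and 1.43 to 4.55 in BAT.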
